A study of Nematostella vectensis with 30 samples.

Results

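The guides described here are the newly annotated miRNA guides of the sea anemone *Nematostella vectensis* whose mature sequence has 22 or more bases. They were picked by name and length from the table of small RNAs bound to the Argonaute proteins NveAGO1 and NveAGO2, in which 53 newly annotated guides reach that length. After 6 of these were left out by their number, 47 guides remained, of 86 newly annotated guides, 136 guides of any kind and 255 arms in the table. The choice by length used no read count, while the choice by name takes in the annotation itself, which was made on read numbers and on enrichment over control libraries of this series. The guides are named by their number alone (miR-8), without the prefix that marks a new annotation, and these numbers do not refer to like-numbered miRNAs of other animals. Known miRNAs keep the prefix nve.

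A miRNA is cut from a hairpin transcript as a short duplex, of which the guide strand stays bound to an Argonaute protein and the star strand is usually lost. The bound guide then pairs with messenger RNAs, and the protein represses or cuts them. Pairing in animals rests largely on the seed, bases 2 to 8 of the guide, whereas cnidarian miRNAs often pair with their targets along nearly the whole guide, as plant miRNAs do. *Nematostella* has a pair of Argonaute paralogs, so each guide can be asked which of them holds it.

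Small RNAs were sequenced after immunoprecipitation (IP) from animals with rabbit antibodies against NveAGO1 (AGO1 IP) or NveAGO2 (AGO2 IP), or with rabbit IgG as the negative control, in early planulae (swimming larvae), primary polyps and adult males. Each of these 9 groups had 2 biological replicates, each a lysate of a fixed volume of whole animals, so differences between tissues cannot be seen. In a second experiment zygotes were injected with morpholino antisense oligonucleotides that block the translation of NveAGO1 or NveAGO2, or with a control morpholino. Total small RNA of pooled whole planulae was then sequenced 3 days after fertilisation, with 3 replicates for NveAGO1 knockdown, NveAGO2 knockdown and the control set of each. Less RNA per animal and fewer cells that hold a guide cannot be told apart in such samples.

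Between 456537 and 13170153 reads mapped to the genome in each of the 18 IP libraries, and miRNA counts went from 9948 in an IgG library to 7833947 in an AGO2 IP library. One library, the second AGO1 IP of primary polyps, has more miRNA counts (6194385) than genome-mapped reads (6153804). The first IgG library of primary polyps has only 456537 mapped reads and the 47 guides summed to 887 CPM (counts per 1000000 genome-mapped reads) in it, against 178 CPM in the second. Levels below are CPM unless stated otherwise.

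The first set of sequences, from the deposited table, shows guides on which the results turn: guides on the NveAGO1 side (miR-8, miR-36-1, miR-58, miR-50), guides on the NveAGO2 side (miR-54, miR-98, miR-24, miR-42-a, and miR-42-b with a near-identical seed), the most abundant guide in most libraries (miR-49) and the 3 guides of 24 or 25 bases (miR-34, miR-25, miR-88). Capitals mark the seed.
miR-8: aAGGUGACcucgaucuucaugau
miR-36-1: uAUUGCAGauccaugagcuagu
miR-58: uGGCAGAUaugguggaaauggu
miR-50: uAAAUUAGgaagaaggagcugg
miR-54: aCAGACUUcgcucaaaaucuaa
miR-98: uUUUCGCGagucagcagcuaca
miR-24: uAACAAAGaacuaacgcucgaa
miR-42-a: uCUGUUCUcgugggugaaugau
miR-42-b: uCUGUUUUucacgcuagcguca
miR-49: gAAACUAUuuccggcuggacgc
miR-34: uUUCGAGAguggcuagaggcgucu
miR-25: uUCUCCUCauugucaguaugcuacu
miR-88: uCUCCAAGuagucgccgcugugucg

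Of the 47 guides, 26 have 22 bases, 18 have 23, 1 has 24 and 2 have 25. The 26 guides of 22 bases lie just inside the length limit, and 25 newly annotated guides of 21 bases lie just outside it. The first base is U in 28 guides, A in 15, C in 3 and G in 1. Of the 47, 25 sit on the 3p arm of their hairpin and 22 on the 5p arm, and 10 have no star strand in the table. Their GC content ran from 21.7% to 65.2%, with a median of 45.5%. The seeds were almost all different. Only miR-44-2 and miR-48-1 share their seed with another guide of the table, and among the 47 the closest seeds differ at 1 base. The seeds of miR-42-a and miR-42-b differ by C7U, those of miR-102-1 and miR-76 by U6G, and those of miR-24 and miR-44-2 by A2C, counted from the 5′ end of the guide and with the base of the first-named guide first.

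The second set shows the sequence relatives of 3 members among the newly annotated guides of 21 bases or fewer. The relatives of miR-44-2 and miR-48-1 are shown because reads of such guides can be hard to assign. Capitals in miR-44-2 mark the 20 bases it shares with miR-44-1, and miR-35 is in capitals throughout, since all its 21 bases lie in miR-44-2 from the base at position 2 onward, the last ones in lower case there. In miR-48-1 and miR-48-2 capitals mark the shared 21 bases, and in miR-49 and miR-46 the stretch of 15 bases in which one is the reverse complement of the other.
miR-44-2: ACACAAAGAACGGCUGCGCGgg
miR-44-1: ACACAAAGAACGGCUGCGCG
miR-35: CACAAAGAACGGCUGCGCGGG
miR-48-1: UAAUGUGGAAGGAAAAAACGUg
miR-48-2: UAAUGUGGAAGGAAAAAACGU
miR-49: gaAACUAUUUCCGGCUGgacgc
miR-46: ugcgugCAGCCGGAAAUAGUU

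The guide miR-44-2 contains all 20 bases of miR-44-1 and all 21 of miR-35, and miR-48-1 contains all 21 bases of miR-48-2. The deposited counts of miR-48-1 and miR-48-2 are the same in every IP library, so a read cannot be assigned to one of them, and that pair was tested once. Levels given below for miR-44-2 and miR-48-1 are therefore uncertain as to the locus.

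The 47 guides together made up a small share of the miRNA reads. Their share of the miRNA counts was 2.72% and 2.26% in AGO1 IP and 1.81% and 3.17% in AGO2 IP of early planulae, and 0.302% and 0.266% in AGO1 IP and 0.679% and 0.607% in AGO2 IP of primary polyps. In adult males it was 2.02% and 4.71% in AGO1 IP and 1.69% and 1.18% in AGO2 IP. Their summed level was highest in AGO1 IP of adult males, with 5455 and 8032 CPM, against 1997 and 1188 CPM in AGO2 IP and 123 and 84.2 CPM in IgG IP of that stage. A single guide, miR-8, supplied 72.0% and 72.2% of the members' counts in those AGO1 IP libraries. Elsewhere in the AGO libraries the leading guide was miR-49 or miR-44-2.

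**Figure D1:**
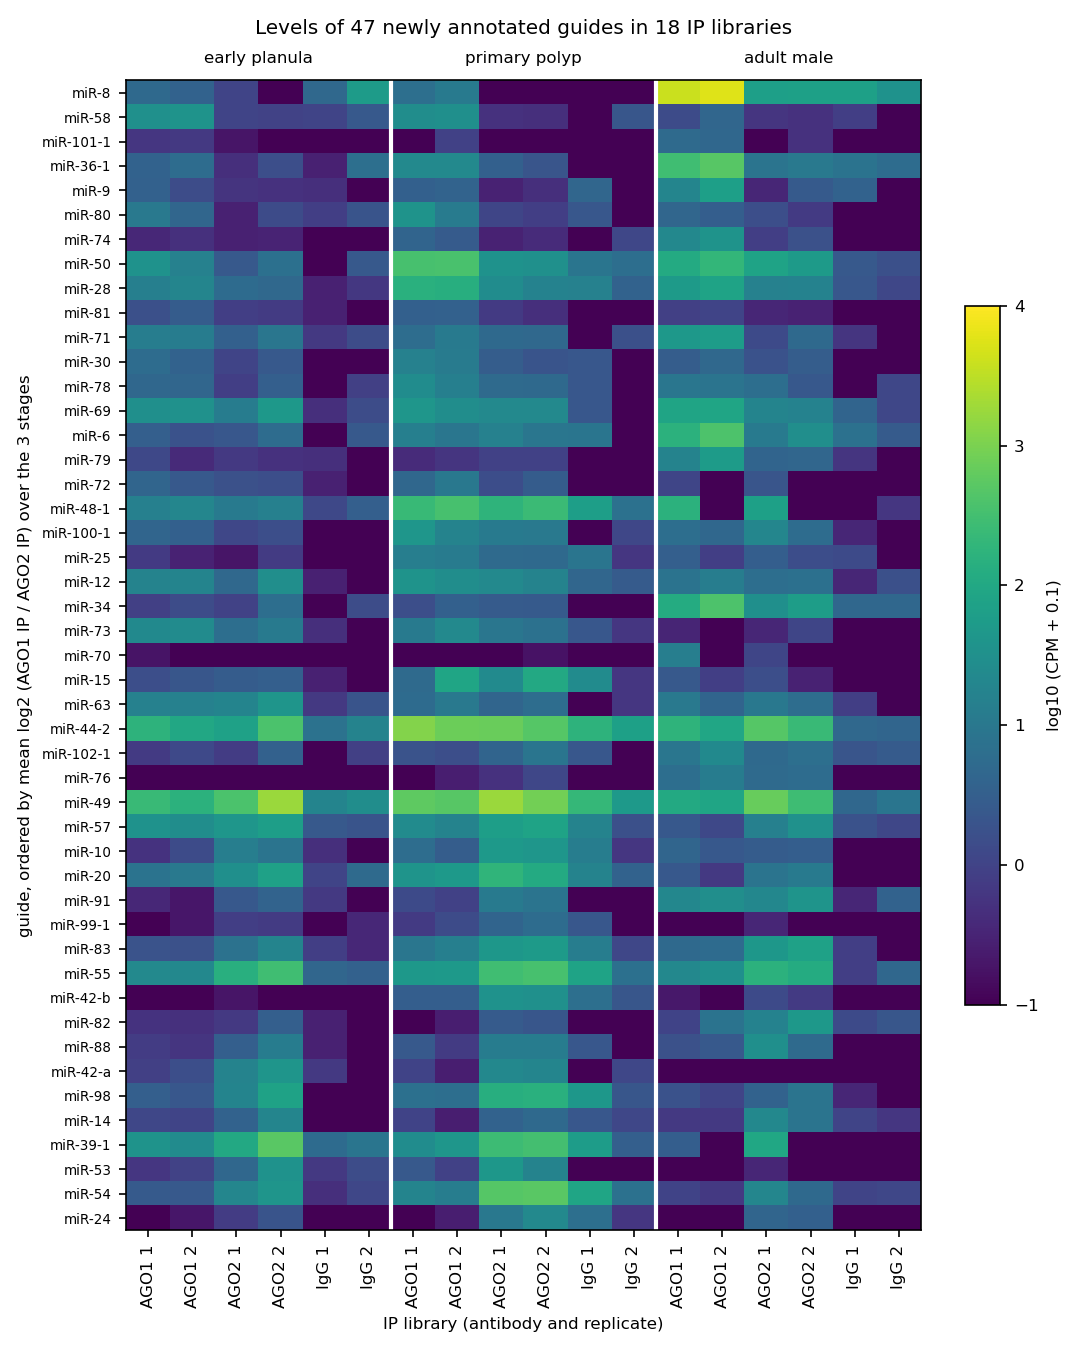
Levels of the 47 guides (rows) in the 18 IP libraries (columns, by stage, antibody and replicate), as log10 of CPM plus 0.1, with guides ordered by their mean log2 fold change of AGO1 IP over AGO2 IP and the untested miR-70 placed at 0. Guides at the top are brighter in the AGO1 columns and guides at the bottom in the AGO2 columns; miR-8 in AGO1 IP of adult males, at 3926 and 5802 CPM, is the brightest pair of cells.

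The levels differed widely among the guides. In early planulae miR-49 had 240.1 and 164 CPM in AGO1 IP and 385 and 1784 CPM in AGO2 IP, and in primary polyps it had 573 and 501 CPM in AGO1 IP and 1758 and 848 CPM in AGO2 IP. In adult males miR-49 had 107 and 88.5 CPM in AGO1 IP, against 701 and 281 CPM in AGO2 IP. The AGO2 values lay above the AGO1 values in every stage, and the replicates of AGO2 IP in early planulae differed from each other more than those of AGO1 IP. In primary polyps miR-44-2 had 1156 and 762 CPM in AGO1 IP, above miR-49, and 704 and 470.2 CPM in AGO2 IP, below it. At the other end, miR-70 was counted in only 4 of 18 libraries and was the member with too few counts to be tested.

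Which Argonaute held each guide was asked separately in each stage, by comparing AGO1 IP with AGO2 IP. The filter of at least 10 counts in at least 2 libraries kept 196 arms, 46 of the 47 guides among them, and a call needed a p under 0.05 after Benjamini-Hochberg adjustment over those arms (edgeR's quasi-likelihood test). In early planulae 3 of the 46 guides were higher in AGO1 IP, against 10.7% of all arms tested, and 15 were lower, against 37.2% of all arms. In primary polyps 11 were higher (15.8% of all arms) and 13 were lower (48.5% of all arms). In adult males 8 were higher (12.2% of all arms) and 9 were lower (30.1% of all arms). The median log2 fold change of AGO1 IP over AGO2 IP over all arms was -1.96 for early planulae, -2.39 for primary polyps and -1.22 for adult males, so on this scale the median arm was lower in AGO1 IP.

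The split of higher and lower calls moved with the scale of the libraries. Relative to the sum of miRNA counts there were 16 higher and 5 lower calls for early planulae, 11 higher and 20 lower for primary polyps, and 8 higher and 16 lower for adult males. TMM factors on those sums gave 17 higher and 6 lower, then 22 higher and 5 lower, then 15 higher and 11 lower for these stages. Median-of-ratios size factors gave 16 higher and 8 lower, then 21 higher and 5 lower, then 26 higher and 2 lower. The calls over all 196 arms moved with the scale as well. On the sum of miRNA counts 45 arms were higher and 42 lower, then 31 and 120, then 19 and 95 for these stages. With TMM factors the arms numbered 46 and 44, then 59 and 52, then 45 and 63. With median-of-ratios size factors they numbered 45 and 47, then 60 and 51, then 76 and 19. The calls also depended on single libraries. Calls over all arms with a library left out are not given here or below, so such member counts are a description only. In early planulae there were 1 higher and 2 lower calls without the first AGO1 library, 2 and 4 without the second, and 2 and 3 without the second AGO2 library. In primary polyps the calls were 7 and 9 without the first AGO1 library, 8 and 5 without the second, 3 and 13 without the first AGO2 library and 3 and 11 without the second. In adult males they were 6 and 3 without the second AGO1 library and 6 and 5 without the first AGO2 library.

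Some guides were called on the same side under all 4 scales. On the NveAGO1 side these were miR-58, miR-8 and miR-80 in early planulae. In primary polyps they were miR-101-1, miR-28, miR-30, miR-36-1, miR-50, miR-58, miR-74, miR-8, miR-80, miR-81 and miR-9, and in adult males miR-101-1, miR-36-1, miR-6, miR-71, miR-74, miR-79, miR-8 and miR-9. On the NveAGO2 side they were miR-10, miR-42-a, miR-53, miR-54 and miR-98 in early planulae, miR-24, miR-42-a, miR-53, miR-54 and miR-98 in primary polyps, and miR-14 and miR-24 in adult males. The primary polyp call of miR-101-1 rests on 1 library, with 0 and 5 counts in AGO1 IP and 0 and 0 in AGO2 IP. On the scale of mapped reads 14 of the 46 guides were called in no stage, and none was called on the NveAGO1 side in one stage and on the NveAGO2 side in another.

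Among the guides of the NveAGO1 side, miR-8 was the only one called in all 3 stages. In adult males it had 3926 and 5802 CPM in AGO1 IP, against 66.7 and 69.2 CPM in AGO2 IP, and the IgG libraries of that stage held 68.7 and 35.8 CPM. The log2 fold change of AGO1 IP over AGO2 IP was 6.16 ± 1.23 (SE, adjusted p = 0.000659), while the AGO2 libraries lay at about the level of the higher IgG library. In primary polyps miR-8 had 6.71 and 11.54 CPM in AGO1 IP and no count in AGO2 IP, at least 54.8-fold higher in AGO1 IP when 3 counts are allowed over the AGO2 group. In early planulae it had 5.003 and 3.70 CPM in AGO1 IP and 0.953 and 0 CPM in AGO2 IP (log2 fold change 2.94 ± 1.13, adjusted p = 0.0303), but the IgG libraries held 4.89 and 54.5 CPM. The AGO1 values of miR-8 in early planulae were thus about level with the first IgG library and below the second.

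The guide miR-58 was held by NveAGO1 in the young stages. In early planulae it had 32.3 and 36.2 CPM in AGO1 IP, against 0.953 and 0.850 CPM in AGO2 IP (log2 fold change 5.20 ± 1.08, adjusted p = 0.000644). In primary polyps it had 27.7 and 30.7 CPM in AGO1 IP, against 0.411 and 0.380 CPM in AGO2 IP (log2 fold change 6.15 ± 1.15, adjusted p = 6.97e-05). The AGO2 values were no higher than the highest IgG value in either stage. In adult males miR-58 had 1.26 and 4.31 CPM in AGO1 IP and 0.494 and 0.410 CPM in AGO2 IP, and missed the threshold (adjusted p = 0.0614).

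The guides miR-36-1 and miR-50 were the most abundant of this side after miR-8, one in adult males and the other in primary polyps. In adult males miR-36-1 had 297 and 499 CPM in AGO1 IP and 8.405 and 10.4 CPM in AGO2 IP (log2 fold change 5.40 ± 1.25, adjusted p = 0.00114), with 7.80 and 5.71 CPM in IgG. In primary polyps miR-50 had 357 and 372 CPM in AGO1 IP and 35.8 and 32.6 CPM in AGO2 IP (log2 fold change 3.41 ± 1.11, adjusted p = 0.00804). The values of miR-50 in AGO2 IP were above both IgG libraries (8.76 and 6.31 CPM), so NveAGO2 libraries also held it above the control. In adult males miR-50 had 114 and 208 CPM in AGO1 IP, against 77.9 and 53.2 CPM in AGO2 IP, without a call (adjusted p = 0.299).

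Further guides of the NveAGO1 side were called in primary polyps or in adult males. In primary polyps miR-28 had 149.7 and 138 CPM in AGO1 IP and 26.7 and 16.6 CPM in AGO2 IP (log2 fold change 2.73 ± 0.997, adjusted p = 0.0163), miR-30 had 15.5 and 11.9 against 2.88 and 1.90 CPM, and miR-80 had 37.2 and 12.03 against 1.03 and 0.759 CPM. All 3 were called. In adult males miR-6 had 164 and 399 CPM in AGO1 IP, against 11.6 and 29.1 CPM in AGO2 IP (log2 fold change 3.79 ± 1.23, adjusted p = 0.0106). Also called in adult males were miR-71, with 45.4 and 59.2 CPM in AGO1 IP and 1.24 and 4.92 CPM in AGO2 IP, miR-9, with 18.4 and 64.9 against 0.247 and 2.46 CPM, and miR-79, with 17.4 and 55.1 against 3.96 and 4.30 CPM. These guides were named here because they were called and their AGO1 and AGO2 libraries did not overlap.

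On the NveAGO2 side miR-14, miR-24, miR-54 and miR-88 were called in all 3 stages on the scale of mapped reads. In primary polyps miR-54 had 17.99 and 13.2 CPM in AGO1 IP, against 472 and 526 CPM in AGO2 IP (log2 fold change -5.00 ± 1.19, adjusted p = 0.000515). In early planulae it had 2.501 and 2.44 CPM in AGO1 IP and 19.9 and 39.7 CPM in AGO2 IP, and in adult males 0.916 and 0.562 CPM in AGO1 IP and 19.8 and 4.92 CPM in AGO2 IP. The groups did not overlap in any stage. The IgG libraries of primary polyps held 87.6 and 7.36 CPM of miR-54, so the first of them exceeded both AGO1 libraries.

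The guide miR-24 was all but absent from AGO1 IP. It had 0 and 0.163 CPM in AGO1 IP (0 and 1 counts) and 10.1 and 22.4 CPM in AGO2 IP of primary polyps. In adult males it had no count in AGO1 IP and 4.20 and 3.28 CPM in AGO2 IP, at least 17.5-fold lower in AGO1 IP when 3 counts are allowed over the AGO1 group. The levels of miR-14 were similar in kind, with 0.573 and 0.562 CPM in AGO1 IP and 21.3 and 8.397 CPM in AGO2 IP of adult males (log2 fold change -4.65 ± 1.08, adjusted p = 0.00114). In early planulae miR-14 had 1.04 and 0.975 CPM in AGO1 IP and 3.72 and 19.1 CPM in AGO2 IP.

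The guides miR-42-a and miR-42-b, whose seeds differ at 1 base, were both lower in AGO1 IP of primary polyps, but only miR-42-a was found at more than 1 count in early planulae. In early planulae miR-42-a had 0.776 and 1.46 CPM in AGO1 IP and 17.2 and 40.2 CPM in AGO2 IP (log2 fold change -4.65 ± 1.06, adjusted p = 0.0013), whereas miR-42-b had 1 count in all 4 AGO libraries of that stage. In primary polyps miR-42-b had 3.05 and 3.09 CPM in AGO1 IP and 34.8 and 33.0 CPM in AGO2 IP (log2 fold change -3.45 ± 0.96, adjusted p = 0.00257), and miR-42-a had 0.915 and 0.163 against 21.6 and 18.6 CPM.

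Other abundant guides of this side were miR-55, miR-39-1, miR-98, miR-10 and miR-83. In primary polyps miR-55 had 46.0 and 47.8 CPM in AGO1 IP and 298 and 356 CPM in AGO2 IP (log2 fold change -2.80 ± 1.06, adjusted p = 0.0201), miR-98 had 7.01 and 6.18 against 134 and 152 CPM (log2 fold change -4.44 ± 1.18, adjusted p = 0.00163), and miR-10 had 6.10 and 2.93 against 51.4 and 42.9 CPM. In adult males miR-83 had 4.93 and 5.44 CPM in AGO1 IP and 45.0 and 71.1 CPM in AGO2 IP (log2 fold change -3.48 ± 1.05, adjusted p = 0.00611), miR-57 had 2.29 and 1.12 against 14.8 and 34.2 CPM, and miR-82 had 0.916 and 7.87 against 16.1 and 46.3 CPM. These guides were named here because they were called and their groups did not overlap. The call of miR-39-1 lay at the threshold in 2 stages: it was called in early planulae (25.8 to 37.4 CPM in AGO1 IP against 106 to 530 CPM in AGO2 IP, adjusted p = 0.0499) and missed in primary polyps (26.5 and 41.8 against 263 and 324 CPM, adjusted p = 0.0511). It was also called in adult males (log2 fold change -4.88, adjusted p = 0.00897), where all its counts came from the first replicate, with 26 and 0 counts in AGO1 IP and 377 and 0 in AGO2 IP. Likewise miR-49 was called in early planulae (adjusted p = 0.0381) and not in adult males (adjusted p = 0.0506), although its libraries did not overlap in either.

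Several guides had no clear side. The calls missed miR-44-2 in every stage, with 172 and 101 CPM in AGO1 IP and 73.7 and 379 CPM in AGO2 IP of early planulae. In adult males it had 179 and 92.1 CPM in AGO1 IP, against 480.1 and 242 CPM in AGO2 IP. Its AGO1 libraries overlapped the AGO2 libraries in early planulae, lay above them in primary polyps and lay below them in adult males. For miR-15 in primary polyps the replicates disagreed more than the antibodies, with 5.18 and 87.4 CPM in AGO1 IP and 25.1 and 106 CPM in AGO2 IP.

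The study's own measure of preference is the share of one AGO in the mean CPM of both AGO IPs, with 70% as the limit for a preference. It is given here, stage by stage, for guides with at least 20 CPM in at least 1 AGO library of the stage. The study asked for that level in any library, so fewer guides can qualify here. Of the 16 guides that qualified in early planulae 3 had over 70% in AGO1 IP and 8 over 70% in AGO2 IP, against 25% and 58.3% of all guides that qualified. Of 26 in primary polyps 7 and 13 did so (21.4% and 60.7% of all), and of 23 in adult males 13 and 9 (36.5% and 48.2% of all). The median share in AGO1 IP over the qualifying members was 25.4% for early planulae, 35.3% for primary polyps and 71.1% for adult males, against 15.98%, 19.1% and 39.7% over all qualifying guides. The sets that qualify differ between stages, since miR-102-1, miR-14, miR-34, miR-6, miR-71, miR-74, miR-79, miR-8, miR-82, miR-88, miR-9 and miR-91 reached 20 CPM in adult males only. The counts moved with the scale and with single libraries. On each scale the minimum of 20 was applied per 1000000 of its own library size, so the guides that qualify differ as well. Shares over all guides on those scales are not given here. Relative to the sum of miRNA counts 20 guides had over 70% in AGO1 IP and 11 in AGO2 IP of early planulae, while primary polyps had 6 and 15 such guides and adult males 12 and 16. TMM factors gave 19 and 10 for early planulae, 24 and 10 for primary polyps, and 22 and 12 for adult males. Without the second AGO2 library of early planulae 3 guides had over 70% in AGO2 IP, and without the first AGO2 library of adult males 5 had.

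**Figure D2:**
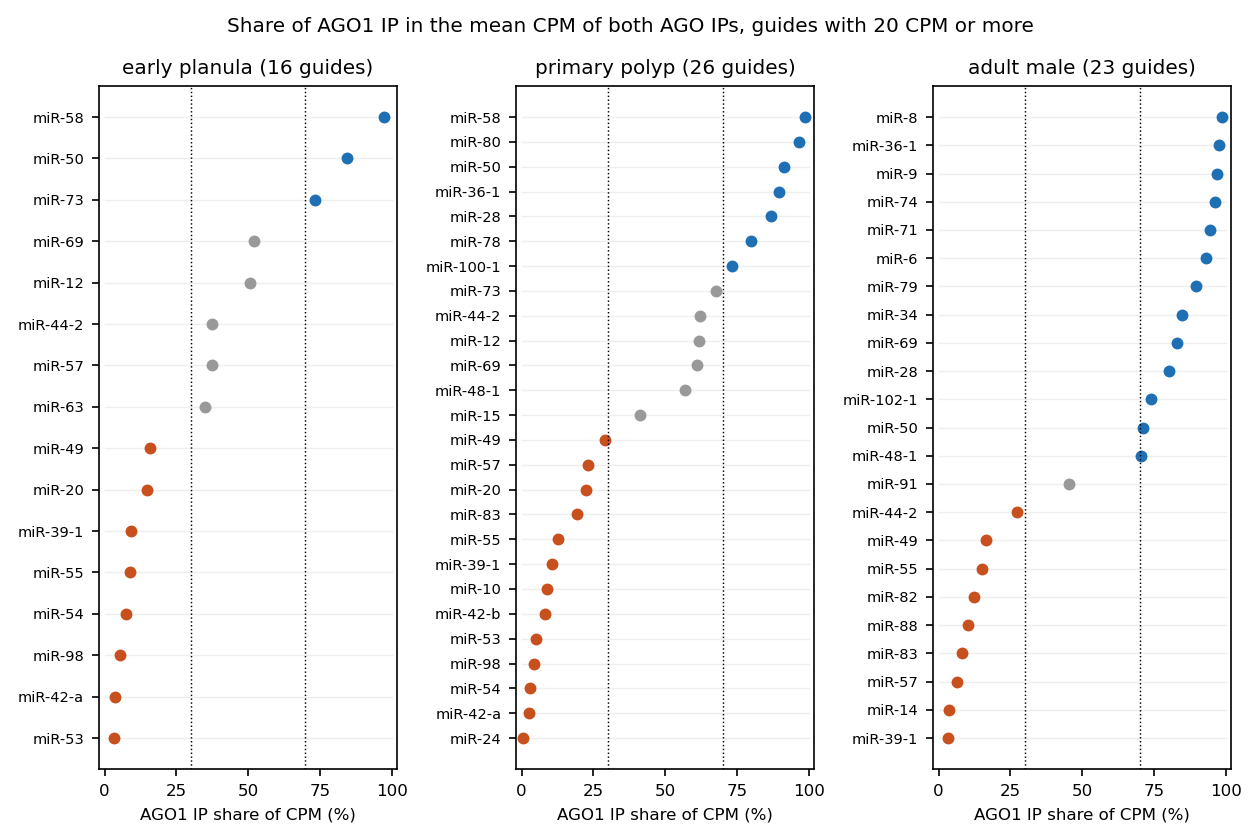
Share of AGO1 IP (horizontal axis, %) in the mean CPM of both AGO IPs for the members with at least 20 CPM in 1 AGO library, by stage; dotted lines mark 30% and 70%, blue points lie over 70% and orange points under 30%. In early planulae 3 of 16 guides lie over 70%, in primary polyps 7 of 26 and in adult males 13 of 23.

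The side of the members was set beside that of 3 other lists of guides, as a description without a test. The median log2 fold change of AGO1 IP over AGO2 IP over the 46 tested members was -0.70 for early planulae, -0.09 for primary polyps and 0.07 for adult males. Over the 32 tested newly annotated guides of 21 bases or fewer it was -3.20, -3.66 and -1.90, over the 28 known guides of 22 bases or more -0.17, -0.20 and -1.35, and over the 20 tested known guides of 21 bases or fewer -2.51, -2.88 and -3.00. With guides at 0 in one group placed at their bound, the member medians were -0.68, -0.09 and 0.15, and those of the shorter new guides -2.61, -3.37 and -2.05. Guides higher in AGO1 IP were 0, 0 and 1 of the 32 shorter new guides in the 3 stages in order, against 3, 11 and 8 of the 46 members. The known guides of 22 bases or more had 7, 8 and 8 of 28 higher and 9, 11 and 11 lower.

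**Figure D3:**
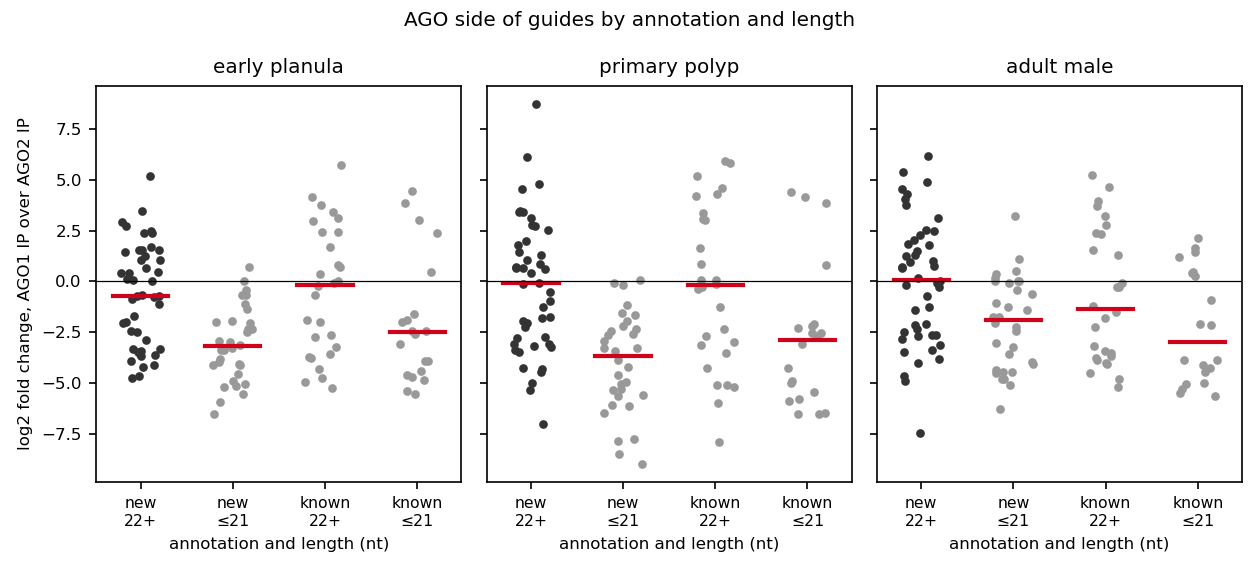
Log2 fold change of AGO1 IP over AGO2 IP (vertical axis, CPM scale) of every tested guide in the 3 stages, grouped by annotation and mature length in nucleotides; red lines are medians, and guides with no count in one group are drawn at their fitted value, which depends on the prior count. The newly annotated guides of 22 or more bases spread to both sides of 0 (medians -0.70, -0.09 and 0.07), while those of 21 or fewer lie mostly below it (medians -3.20, -3.66 and -1.90).

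Within the members, the calls were also counted by hairpin arm, star strand, first base and length, again without a test. In adult males 7 of 21 tested guides of the 5p arm were higher in AGO1 IP and 3 lower, against 1 higher and 6 lower of 25 guides of the 3p arm. In early planulae 2 were higher and 6 lower on the 5p arm and 1 higher and 9 lower on the 3p arm. Primary polyps had 7 higher and 5 lower guides of the 5p arm and 4 higher and 8 lower of the 3p arm. Of 9 tested guides without a star strand 5 were higher in AGO1 IP and 1 lower in primary polyps, against 6 higher and 12 lower of 37 guides with one. Those without a star strand were 1 higher and 1 lower in early planulae and 2 higher and 0 lower in adult males, against 2 and 14 and 6 and 9 of those with one. Guides that begin with U were 1 higher and 11 lower of 28 in early planulae, while primary polyps had 7 and 9 and adult males 2 and 5. Of 14 guides that begin with A early planulae had 2 higher and 2 lower, primary polyps 3 and 2, and adult males 5 and 2. By length, the median log2 fold change over 25 guides of 22 bases was -1.11 for early planulae, -1.78 for primary polyps and -0.26 for adult males. Over 18 guides of 23 bases it was 0.38, 0.88 and 0.82 in the same order. Of the longest guides miR-88 was called lower in AGO1 IP in all 3 stages (0.690 and 0.487 CPM in AGO1 IP against 3.15 and 12.3 CPM in AGO2 IP of early planulae, adjusted p = 0.00576), while miR-25 and miR-34 were called in none.

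Whether the AGO1 to AGO2 ratio of a guide differed between stages was tested in the same fit. At an adjusted p under 0.05 none of the 46 guides passed with edgeR, against 3.57% of all arms, while 8 had an unadjusted p under 0.05, and the lowest adjusted p was that of miR-8 (0.148). On other scales 12 guides (sum of miRNA counts), 9 (TMM factors) and 9 (median-of-ratios size factors) passed. The share of all arms that passed on those scales is not given here, so these counts are a description only. Without the first AGO2 library of adult males 1 guide passed, miR-48-1. The AGO1 libraries lay above the AGO2 libraries in all 3 stages for 11 guides (miR-28, miR-36-1, miR-50, miR-58, miR-71, miR-74, miR-78, miR-8, miR-80, miR-81 and miR-9) and below them for 11 others (miR-14, miR-20, miR-24, miR-49, miR-54, miR-55, miR-57, miR-82, miR-83, miR-88 and miR-98). How many of all arms did so in all 3 stages was not counted, so these counts are a description only. In single stages the AGO1 libraries lay above in 17, 19 and 19 of the 46 guides, against 20.9%, 23.5% and 26% of all arms, and below in 19, 21 and 14, against 52%, 64.3% and 45.9%.

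Stage patterns were compared within AGO1 IP and within AGO2 IP, in RPM (reads per 1000000 miRNA counts of the library). In AGO1 IP none of the 46 guides was higher in primary polyps than in early planulae, against 1.53% of all arms, and 36 were lower, against 65.8% of all arms. The unadjusted p was under 0.05 for the same number, 36, and DESeq2 gave 0 higher and 34 lower. All arms shifted together in this comparison, by a median log2 fold change of -3.14, and on the scale of mapped reads the median was 1.73 and 10 guides were higher and none lower. The direction of the members as a group thus turned with the scale, none of the 36 calls held on all 4 scales, and miR-83, miR-44-2, miR-100-1 and miR-28 were called the opposite way on at least 1. Among the called guides with at least 50 counts in 1 library the largest fold changes were those of miR-63, miR-57 and miR-71. In AGO1 IP miR-63 had 5.54 and 10.2 RPM in primary polyps, against 546 and 601 RPM in early planulae, and its log2 fold change was -6.16 ± 0.94 (adjusted p = 8.15e-07), or -3.02 relative to the median of all arms.

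In AGO2 IP 1 guide was higher in primary polyps than in early planulae (7.14% of all arms) and 20 were lower (27.6% of all arms), with a median over all arms of -1.04. The guide that was higher was miR-42-b, called so on all 4 scales, with 52.3 and 55.4 RPM in primary polyps, against 1.81 and 0 RPM in early planulae (1 and 0 counts). Of the 20 lower calls, miR-63 and miR-8 held on all 4 scales, although miR-8 had no count in primary polyps and only 18.1 and 0 RPM in early planulae, so that the groups overlap at 0. The guide miR-63 had 6.19 and 10.3 RPM in primary polyps and 336 and 356 RPM in early planulae (log2 fold change -5.36 ± 0.90, adjusted p = 9.28e-06). Also lower were miR-14, with 5.57 and 8.42 against 70.5 and 169 RPM, and miR-42-a, with 32.5 and 31.3 against 326 and 356 RPM, each called on 3 of the 4 scales. The number of lower calls fell to 6 and 7 without the first or the second primary polyp library and to 11 without either early planula library.

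From primary polyp to adult male the levels separated a set of guides under every scale. In AGO1 IP 16 guides were higher in adult males (37.8% of all arms) and 5 were lower (15.8% of all arms), and 13 of the higher and all 5 of the lower calls held on all 4 scales. The 13 were miR-8, miR-34, miR-79, miR-76, miR-82, miR-6, miR-91, miR-36-1, miR-9, miR-102-1, miR-74, miR-101-1 and miR-71. The guide miR-8 had 14509 and 33992 RPM in AGO1 IP of adult males, against 6.77 and 11.46 RPM in primary polyps (log2 fold change 11.35 ± 1.13, adjusted p = 9.28e-12). For miR-34 the values were 431 and 2308 RPM in adult males and 1.54 and 3.23 RPM in primary polyps (log2 fold change 9.07 ± 1.14, adjusted p = 3.35e-09), and for miR-79 they were 64.4 and 323 against 0.308 and 0.484 RPM. The second adult male library was the higher one for these 3 guides.

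The 5 guides lower in adult males in AGO1 IP were miR-73, miR-20, miR-15, miR-54 and miR-42-b. The guide miR-73 had 0.847 and 0 RPM (2 and 0 counts) in adult males, against 11.1 and 22.8 RPM in primary polyps, and miR-20 had 8.47 and 3.30 against 39.4 and 48.6 RPM (log2 fold change -2.80 ± 0.82, adjusted p = 0.00377). The call for miR-15 rests on 1 library. It had 8.89 and 4.39 RPM in adult males and 5.23 and 86.9 RPM in primary polyps, and without the second primary polyp library its log2 fold change was 0.40 in place of -2.72. Without that library 3 guides were lower, and without the second adult male library 2 were.

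In AGO2 IP 24 guides were higher in adult males than in primary polyps (43.4% of all arms) and 6 were lower (14.8% of all arms), with a median over all arms of 1.27. Only 4 of the 24 held on all 4 scales, namely miR-8, miR-34, miR-82 and miR-76, whereas all 6 lower calls did, namely miR-42-a, miR-53, miR-15, miR-54, miR-42-b and miR-98. The guide miR-8 had 564 and 687 RPM in adult males and no count in primary polyps, at least 2308-fold higher when 3 counts are allowed over the primary polyp group, though the adult male values in CPM lay near those of IgG as given above. For miR-34 the values were 257 and 608 RPM in adult males, against 4.02 and 4.21 RPM in primary polyps (log2 fold change 6.68 ± 1.03, adjusted p = 4.99e-07), and for miR-82 they were 136 and 459 against 4.02 and 3.45 RPM. No count of miR-42-a was found in any adult male library, IgG included, against 32.5 and 31.3 RPM in AGO2 IP of primary polyps, at least 10.3-fold lower in adult males. The guide miR-54 had 167 and 48.8 RPM in adult males, against 710 and 884 RPM in primary polyps (log2 fold change -2.88 ± 0.79, adjusted p = 0.00204). There were 13 higher calls without the first primary polyp library, and 3 lower calls without the second.

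**Figure D4:**
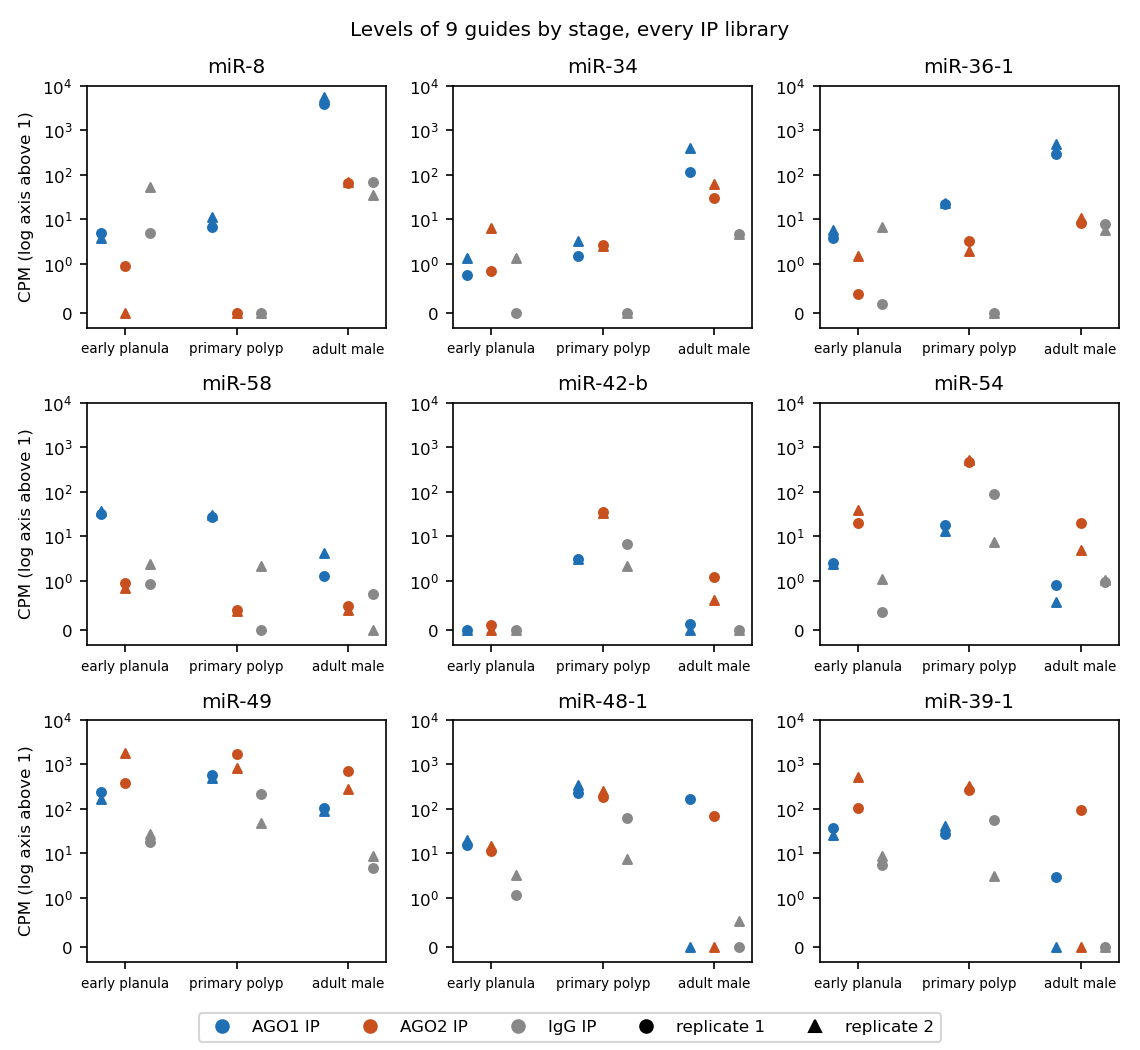
CPM (vertical axis, logarithmic above 1) of 9 guides in every IP library by stage, with AGO1 IP in blue, AGO2 IP in orange and IgG IP in grey, circles for replicate 1 and triangles for replicate 2. The guide miR-8 is below 12 CPM in AGO1 IP of the young stages and at 3926 and 5802 CPM in adult males, miR-58 lies above its AGO2 values in early planulae and primary polyps, and miR-48-1 and miR-39-1 have values in only 1 replicate of the adult male AGO libraries.

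There were 3 members with at least 50 counts over the AGO libraries of one adult male replicate and none in those of the other. In the first replicate miR-48-1 had 1443 counts in AGO1 IP and 280 in AGO2 IP, miR-39-1 had 26 and 377, and miR-70 had 121 and 4, and each had 0 in both AGO libraries of the second. A count of 0 allows up to 0.562 CPM in that AGO1 library and 0.614 CPM in that AGO2 library, while miR-48-1 had 165 CPM in AGO1 IP and 69.2 CPM in AGO2 IP of the first replicate. Of 134 guides, with identical counts taken once, 3 showed at least 50 counts in the first replicate and none in the second, and 0 showed the reverse. These 3 are the members just named, but miR-48-1 has the same counts as miR-48-2, a guide of 21 bases that is not a member. Below that minimum miR-72 had 9 counts in AGO1 IP and 8 in AGO2 IP of the first replicate, miR-53 and miR-99-1 had 1 count each in that AGO2 library, and all had 0 in both AGO libraries of the second. The adult male levels of these guides are therefore those of 1 replicate, and whether the animals of the replicates differed was not tested.

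Compared with the IgG control, 39 of the 47 guides lay above both IgG libraries in at least 1 of the AGO groups in early planulae (both libraries of the group counted), 43 in primary polyps and 40 in adult males. This is a description only, since a miRNA was newly annotated in these same libraries on enrichment over the IgG controls and on read number. The share of all arms that lay above IgG was not counted. In AGO1 IP alone 34, 27 and 32 guides lay above both IgG libraries in the 3 stages in order, and in AGO2 IP alone 34, 37 and 36. The sum of the members in IgG IP was 53.8 and 148 CPM in early planulae, and miR-8 supplied 36.7% of the counts of the second library.

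In the knockdown libraries the question was whether the level of a guide changed when one of the Argonautes was depleted. The libraries hold no measure of the Argonaute proteins, so depletion itself was not measured here. Levels are reads per 1000000 spike-in reads, with the mean count of 4 synthetic RNAs added to each sample as the library size. The guides were at the limit of detection in these libraries of whole larvae. Of 47 guides 9 had no count in any of the 12 libraries, 33 had 1 to 100 counts over all 12, and the highest total was 734. Only 6 guides passed the filter of at least 10 counts in at least 3 libraries, which 61 arms passed: miR-39-1, miR-42-a, miR-44-2, miR-49, miR-55 and miR-57, of which all but miR-44-2 and miR-57 were called lower in AGO1 IP than in AGO2 IP of early planulae.

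In NveAGO1 knockdown 2 of the 6 guides were higher than in the control and none was lower, against 42.6% and 9.84% of all arms tested. The guide miR-55 had 369, 280.05 and 149.9 reads per 1000000 spike-in reads in NveAGO1 knockdown, against 89.8, 125 and 90.3 in the control, a log2 fold change of 1.32 ± 0.54 (adjusted p = 0.0390). The guide miR-57 had 461, 345 and 321 in NveAGO1 knockdown, against 168, 83.1 and 193 in the control, a log2 fold change of 1.29 ± 0.52 (adjusted p = 0.0368). The groups did not overlap for either. Behind these values stand 7 to 13 counts of miR-55 and 6 to 16 of miR-57 per library. All arms had a median log2 fold change of 0.82, so relative to it miR-55 rose by 0.49 and miR-57 by 0.47, and on the sum of miRNA counts or with TMM factors neither was called. Leaving out any one of the 6 libraries left 0 calls or 1 call, 0 without the first or second knockdown library or the first or second control library and 1 without replicate 3 of either group, and DESeq2 called 1 guide, miR-57. With same-numbered libraries paired in edgeR's fit (the replicate block) both guides stayed called. The log2 fold change was then 1.29 ± 0.52 for miR-55 (adjusted p = 0.0370) and 1.31 ± 0.48 for miR-57 (adjusted p = 0.0210).

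The other 4 guides in NveAGO1 knockdown had log2 fold changes of 0.81 ± 0.53 (miR-39-1), 0.41 ± 0.53 (miR-44-2), 0.25 ± 0.64 (miR-49) and -0.15 ± 0.57 (miR-42-a), none of them called. For miR-39-1 the knockdown values of 230.4, 345 and 278 lay above the control values of 224, 83.1 and 181. For miR-49 they were 230.4, 797 and 193, against 325, 637 and 103.2 in the control, and overlapped.

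In NveAGO2 knockdown none of the 6 guides was called in edgeR's fit without pairing of the replicates, against 8.2% of all arms higher and 21.3% lower. At an unadjusted p under 0.05 there were 2, miR-49 and miR-55, and DESeq2 called none. The guide miR-49 had 476, 937 and 223 reads per 1000000 spike-in reads in NveAGO2 knockdown, against 119, 349 and 40.5 in the control, with a log2 fold change of 1.62 ± 0.67 (adjusted p = 0.0638). In the study the knockdown and control of a replicate were injected on the same day into zygotes of the same batch. With libraries of the same number assumed to be such pairs, miR-49 was higher in the knockdown library in 3 of 3. In edgeR's fit with these pairs, the replicate block, miR-49 had a log2 fold change of 1.81 ± 0.47 and was called (adjusted p = 0.00316). It was also called relative to the sum of miRNA counts (adjusted p = 0.0457). There was 1 higher call without replicate 3 of the knockdown or without the second control library, and 1 lower call without the first control library. The guide miR-55 had 52.8, 68.6 and 27.9 in NveAGO2 knockdown and 29.7, 152 and 162 in the control, with 1 to 12 counts per library and a log2 fold change of -1.36 ± 0.64 (adjusted p = 0.101).

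**Figure D5:**
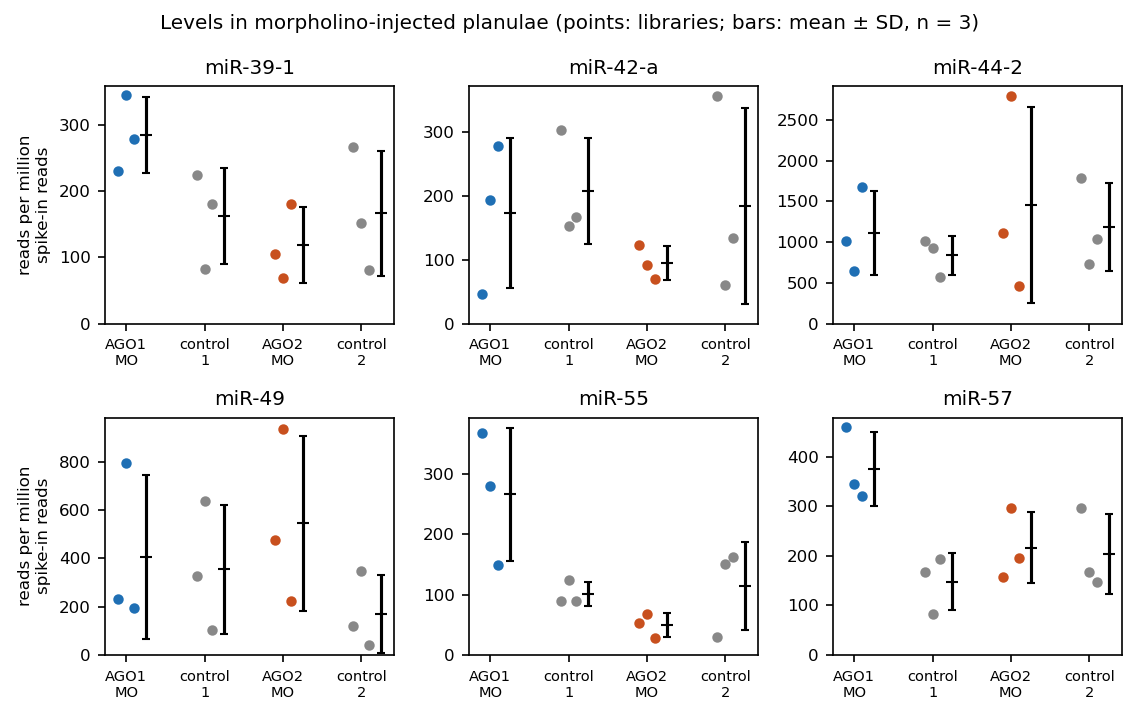
Levels of the 6 tested guides in planulae injected with a morpholino against NveAGO1 or NveAGO2 and in the control set of each, in reads per 1000000 spike-in reads (vertical axis); points are libraries and bars the mean ± SD of 3. In NveAGO1 knockdown the values of miR-55 (149.9 to 369) and miR-57 (321 to 461) lie above their controls (89.8 to 125 and 83.1 to 193).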

How the data were processed

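Small RNA was sequenced from 18 IP libraries and 12 knockdown libraries. The authors trimmed adapters with cutadapt, of unstated version, and deposited whole-number read counts per miRNA arm, made with the quantifier of miRDeep2, with default settings for the IP table and no mismatches for the knockdown table. The deposited knockdown table holds spike-in counts and averages in the same columns as the counts of the arms. The rows of the arms are whole numbers and were tested as counts. No genome of the files' build was used, so the guides carry no positions. Guide status of known arms and the genome-mapped reads came from the study's own lists and table. No column belonged to another series.

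AGO sides were tested on genome-mapped reads as library size (CPM), stages on the sum of miRNA counts (RPM) and knockdowns on the mean of 4 spike-ins, each with edgeR 4.0.16 (quasi-likelihood, R 4.3.3) and Benjamini-Hochberg adjustment over all arms that reached a minimum of 10 counts in 2 IP or 3 knockdown libraries. Rows with the same counts were tested once. The code was tested on simulated data. Alternatives were other library scales, DESeq2 1.42.0, no filter, the replicate block and each library left out in turn; where that left a lone library, it was assumed to vary like the other groups. Depth ran from 456537 to 13170153 genome-mapped reads in the IP libraries. Floors (3 counts for a count of 0) cover counting error only. The SE of a log2 fold change comes from the quasi-likelihood fit, which takes in the spread between replicates. In the study the knockdown and control of a replicate shared a day and a zygote batch. Libraries of the same number were assumed to be such pairs, which the sample titles do not state. Correlations of their deviations from the group means ran from -0.26 to 0.35. No source used here says what IP replicates of one number share, so they were not paired. Tables were handled with Python 3.11.15, pandas 2.3.3 and numpy 2.4.6, and plots drawn with matplotlib 3.10.9.

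Guides were named by rule: per stage and side the 6 highest called guides without overlap, per AGO and stage the 3 highest, any with a difference between stages, per stage contrast and direction the 3 largest called fold changes with at least 50 counts in 1 library, guides of 24 bases or more, with a shared seed or too few counts, and all tested in the knockdown table. Others are named where a group needs it. Members and lists were chosen with earlier results of these data known.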

Additional observations from a re-analysis of the deposited data

Results flagged for a closer look

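The values of miR-44-2 lay on opposite sides in 2 stages. The share of AGO1 IP in its mean CPM was 27.3% in adult males and 62.0% in primary polyps, and its AGO1 libraries lay below both AGO2 libraries in adult males and above both in primary polyps. The test of a difference between stages in its AGO1 to AGO2 ratio did not pass in edgeR's fit over all arms (adjusted p = 0.594). Its reads cannot be fully separated from those of miR-44-1 and miR-35.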

How the results depend on the processing

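Calls between AGO1 IP and AGO2 IP are given as higher, then lower in AGO1 IP. On the sum of miRNA counts early planulae had 16 and 5, primary polyps 11 and 20, and adult males 8 and 16. With TMM factors they were 17 and 6, 22 and 5, and 15 and 11, and with median-of-ratios size factors 16 and 8, 21 and 5, and 26 and 2. The counts over all arms on these scales are given above. For a library left out, and for differences between stages on other scales, they are not given here. DESeq2's test on the same scale gave 6 higher in early planulae, a count given without the share over all arms. With single libraries left out the ranges were 1 to 2 and 2 to 14, 3 to 8 and 5 to 13, and 6 to 8 and 3 to 8. Differences between stages in the ratio numbered 12 on the sum, 9 with TMM factors and 9 with median-of-ratios size factors, and 0 to 1 with a library left out.

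For preference the level minimum was applied in the units of each scale, so the guides that qualify differ between scales. Shares over all guides on the other scales are not given here. Guides over 70% in AGO1 IP of early planulae numbered 20 on the sum, 19 with TMM factors and 5 from 10 CPM, and 2 to 4 with a library left out (3 to 10 for AGO2 IP). In primary polyps 24 passed with TMM factors and 11 from 10 CPM, with 5 to 8 on leaving libraries out (10 to 13 for AGO2 IP). In adult males 22 passed with TMM factors, against 9 to 13 on leaving libraries out, and for AGO2 IP 16 on the sum and 5 to 10.

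For primary polyp over early planula in AGO1 IP the calls, higher then lower, were 10 and 0 on mapped reads, 4 and 5 with TMM factors and 4 and 6 with median-of-ratios size factors, with 0 higher and 32 to 35 lower on leaving libraries out. In AGO2 IP they were 10 and 2, 3 and 7, and 2 and 12, with 1 higher and 6 to 11 lower. For adult male over primary polyp in AGO1 IP the lower calls were 16 on mapped reads, 18 with TMM factors and 3 with DESeq2's test, with 14 to 15 higher and 2 to 6 lower on leaving libraries out. In AGO2 IP the calls were 4 and 10, 15 and 10, and 11 and 10, with 13 to 20 higher and 3 to 7 lower. The log2 fold change of miR-15 in AGO1 IP ran from -3.62 to 0.40 with a library left out, the highest without the second primary polyp library. All 196 arms gave these calls on mapped reads, TMM factors and median-of-ratios size factors in turn. For primary polyp over early planula they were 46 and 2, 21 and 15, and 20 and 18 in AGO1 IP. In AGO2 IP they were 74 and 3, 32 and 20, and 23 and 31. For adult male over primary polyp they were 47 and 68, 50 and 75, and 65 and 38 in AGO1 IP. In AGO2 IP they were 30 and 65, 55 and 59, and 49 and 59.

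Higher calls in NveAGO1 knockdown were 0 on the sum, 0 with TMM factors and 1 with DESeq2's test, and 0 to 1 on leaving libraries out. In NveAGO2 knockdown 1 guide was higher on the sum, 1 with no filter and 1 with the replicate block, and 0 to 1 were higher and 0 to 1 lower on leaving libraries out. Of all 61 arms 9 were higher on the sum and 9 with TMM factors in NveAGO1 knockdown. In NveAGO2 knockdown 19 of them were higher on the sum. Calls over all arms under DESeq2's test, with no filter, with the replicate block or with a library left out are not given here. For the IP libraries, whose numbers are not known to pair them (correlations of deviations -0.18, 0.39 and 0.65), the replicate block gave 5 higher in early planulae. This count too is given without the share over all arms. Of 562 alternative values of 56 named, called values 440 kept direction and call, 121 kept direction and lost the call, 3 of the lost calls under the block, and 1 reversed; the causes were not tested. The 2 libraries per IP group and the few counts in the knockdown libraries limit what can be called.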

Other observations

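The members miR-71 and miR-54 hold a stretch of 11 bases in which each is the reverse complement of the other, shown in capitals.
miR-71: acaccgaUUUGAGCGAAGcgac
miR-54: acagaCUUCGCUCAAAaucuaa
In CPM their libraries lay on opposite sides in all 3 stages, but miR-71 was called in adult males only. Its adjusted p in edgeR's test was 0.332 for early planulae and 0.416 for primary polyps. In RPM its primary polyp groups overlapped, with 6.16 and 11.3 in AGO1 IP against 7.43 and 7.91 in AGO2 IP. In adult males miR-71 had 45.4 and 59.2 CPM in AGO1 IP and 1.24 and 4.92 CPM in AGO2 IP, while miR-54 had 0.916 and 0.562 CPM in AGO1 IP and 19.8 and 4.92 CPM in AGO2 IP.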
